A study of Mus musculus with 4 samples.

Results

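Immediate early genes are switched on within minutes of a stimulus without new protein synthesis, and 10 of them, Fos, Fosb, Jun, Junb, Egr1, Nr4a1, Arc, Ier2, Npas4 and Btg2, are described here in the mouse main olfactory epithelium of animals for which the labels give no odorant or other treatment. They were taken as a named list out of 55511 features, and all 10 were found among the counted genes. The tissue came from 4 male C57BL/6 mice (the substrain C57BL/6J in the study's methods) aged 8 weeks, with 1 library per mouse, and the 4 mice (replicates 1 to 4) formed a single group with no treated or silenced animals. The epithelium was dissociated with papain, live nucleated cells were sorted by dye staining, and the 3′ ends of transcripts were counted in single cells with the 10x Genomics Chromium chemistry. Each captured molecule carries a unique molecular identifier (UMI), so a UMI count is a count of molecules. Of 21809 cell barcodes, the deposited annotation retained 15859 cells in 10 types and 10519 of these were mature olfactory sensory neurons (OSNs). Every library went through the same dissociation and sorting, and no undissociated tissue was compared, so transcripts made in the animal and transcripts made during preparation cannot be told apart in these levels.

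In most neurons calcium entry through active channels reaches kinases that phosphorylate CREB and the SRF complex, which then start transcription of Fos, Egr1, Nr4a1, Arc and Npas4. The products are mostly transcription factors that set off a second wave of genes. The same first wave also follows growth factors, wounding, heat and enzymatic dissociation in many cell types, so Fos and its relatives mark recent stimulation and not a type of cell. In OSNs, odorants bound by the one receptor gene that each neuron expresses raise cyclic AMP and calcium, and Fos and Egr1 are used as readouts of that activity.

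The start regions of members are shown because the cyclic AMP response element (CRE), bound by CREB, is a common feature of this class of gene. RefSeq start regions (250 bases before to 50 bases after the annotated start, GRCm38.p6) were read for 7 of the 10 members, namely Fos, Fosb, Jun, Junb, Nr4a1, Npas4 and Btg2. The CRE core TGACG, on either strand, was found in 6 of the 7 and not in Jun. It stood in 20.81% of the 32851 start regions of the same length. Of the 7, only Btg2 held the whole palindrome TGACGTCA, which overlaps the core and stood in 1.79% of all start regions. The TATA motif TATAAA was found on either strand in Fos and Junb and in 13.62% of all regions, while neither the AP-1 site TGANTCA (7.808% of regions) nor a CArG box (1.629%) was found in any of the 7. These matches describe letters in a short window and are not shown to be bound. The Fos region is chr12:85473640-85473939 on the plus strand, that of Nr4a1 is chr15:101266596-101266895 on the plus strand and lies at a start within the gene, downstream of the first base of its annotated span, and that of Btg2 is chr1:134079106-134079405 on the minus strand. Capitals mark the core (TGACG, or CGTCA where it lies on the other strand), which occurs 2 times in Fos and 4 times in Nr4a1, and in Btg2 the whole palindrome.
Fos: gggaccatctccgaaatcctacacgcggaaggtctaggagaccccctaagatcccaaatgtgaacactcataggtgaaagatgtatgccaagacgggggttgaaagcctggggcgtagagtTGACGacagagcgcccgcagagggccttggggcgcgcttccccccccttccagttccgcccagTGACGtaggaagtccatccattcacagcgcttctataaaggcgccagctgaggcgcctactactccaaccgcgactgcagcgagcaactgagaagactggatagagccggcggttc
Nr4a1: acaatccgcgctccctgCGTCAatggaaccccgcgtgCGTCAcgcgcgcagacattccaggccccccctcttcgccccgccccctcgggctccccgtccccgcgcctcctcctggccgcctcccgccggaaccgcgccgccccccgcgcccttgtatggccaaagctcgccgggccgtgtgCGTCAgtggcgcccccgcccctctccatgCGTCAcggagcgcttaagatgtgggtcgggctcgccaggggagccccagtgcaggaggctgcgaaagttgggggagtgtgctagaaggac
Btg2: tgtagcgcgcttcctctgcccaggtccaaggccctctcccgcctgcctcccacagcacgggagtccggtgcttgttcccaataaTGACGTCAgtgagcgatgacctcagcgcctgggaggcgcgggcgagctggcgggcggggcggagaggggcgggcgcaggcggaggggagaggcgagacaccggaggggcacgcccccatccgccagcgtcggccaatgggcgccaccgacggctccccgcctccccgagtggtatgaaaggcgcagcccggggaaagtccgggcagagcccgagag

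The libraries held from 23157467 to 32382702 UMIs, and the median mature OSN had from 4004 UMIs (mouse 4) to 6591 (mouse 3). Mature OSN markers (Omp, Adcy3, Cnga2, Gng13 and Stoml3 summed) stood at 263 ± 3.21 UMIs per 10000 in mature OSNs (SD, n = 4 mice, as for all levels that follow) and at 2.33 ± 0.823 in Mv2. Horizontal basal markers stood at 46.6 ± 6.72 in HBC1 and 24.4 ± 5.68 in HBC2 against 0.0253 ± 0.0117 in mature OSNs, but HBC2 also held sustentacular markers at 81.0 ± 29.5, and Mv1 held mature OSN markers (33.8 ± 13.3) above its microvillar ones (12.6 ± 9.56). Barcode sequences found in more than 1 library numbered 54, of which 26 were among retained cells. Doublet calling by Scrublet marked from 0.0351% to 0.600% of barcodes per mouse and so did not work in 3 of the 4 mice. Blood cells, which the authors had removed from their set, served as a gauge of free RNA. Blood markers made up 5015 ± 605 of every 10000 UMIs there, and mature OSN markers 12.4 ± 7.17.

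Levels are UMIs per 10000 UMIs of the summed cells of a type in a mouse, and gene positions are on GRCm38. The 10 members added together were highest in the first cluster of horizontal basal cells (HBC1), the reserve stem cells of the epithelium, at 152 ± 33.0. HBC2 followed at 117 ± 11.5, then the types annotated as microvillar, Mv1 at 106 ± 34.1 and Mv2 at 71.6 ± 6.91. Type names are those of the deposited annotation, and HBC2 and Mv1 carry the mixed markers given above. Sustentacular cells (Sus), the supporting cells, stood at 48.9 ± 10.4 and globose basal cells (GBC), the dividing progenitors, at 27.2 ± 4.11. Along the neuronal lineage the sum went from 16.4 ± 1.71 in immediate neuronal precursors (INP) to 9.78 ± 1.65 in iOSN1, 8.38 ± 0.910 in iOSN2 and 6.67 ± 0.436 in mature OSNs (mOSN). HBC1, HBC2 and Mv1 overlapped over mice, as did iOSN1 with iOSN2. Every other pair of neighbours in this order was apart in all 4 mice except Mv1 and Mv2, which overlapped. Mature OSNs were thus the lowest type for the sum.

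**Figure D1:**
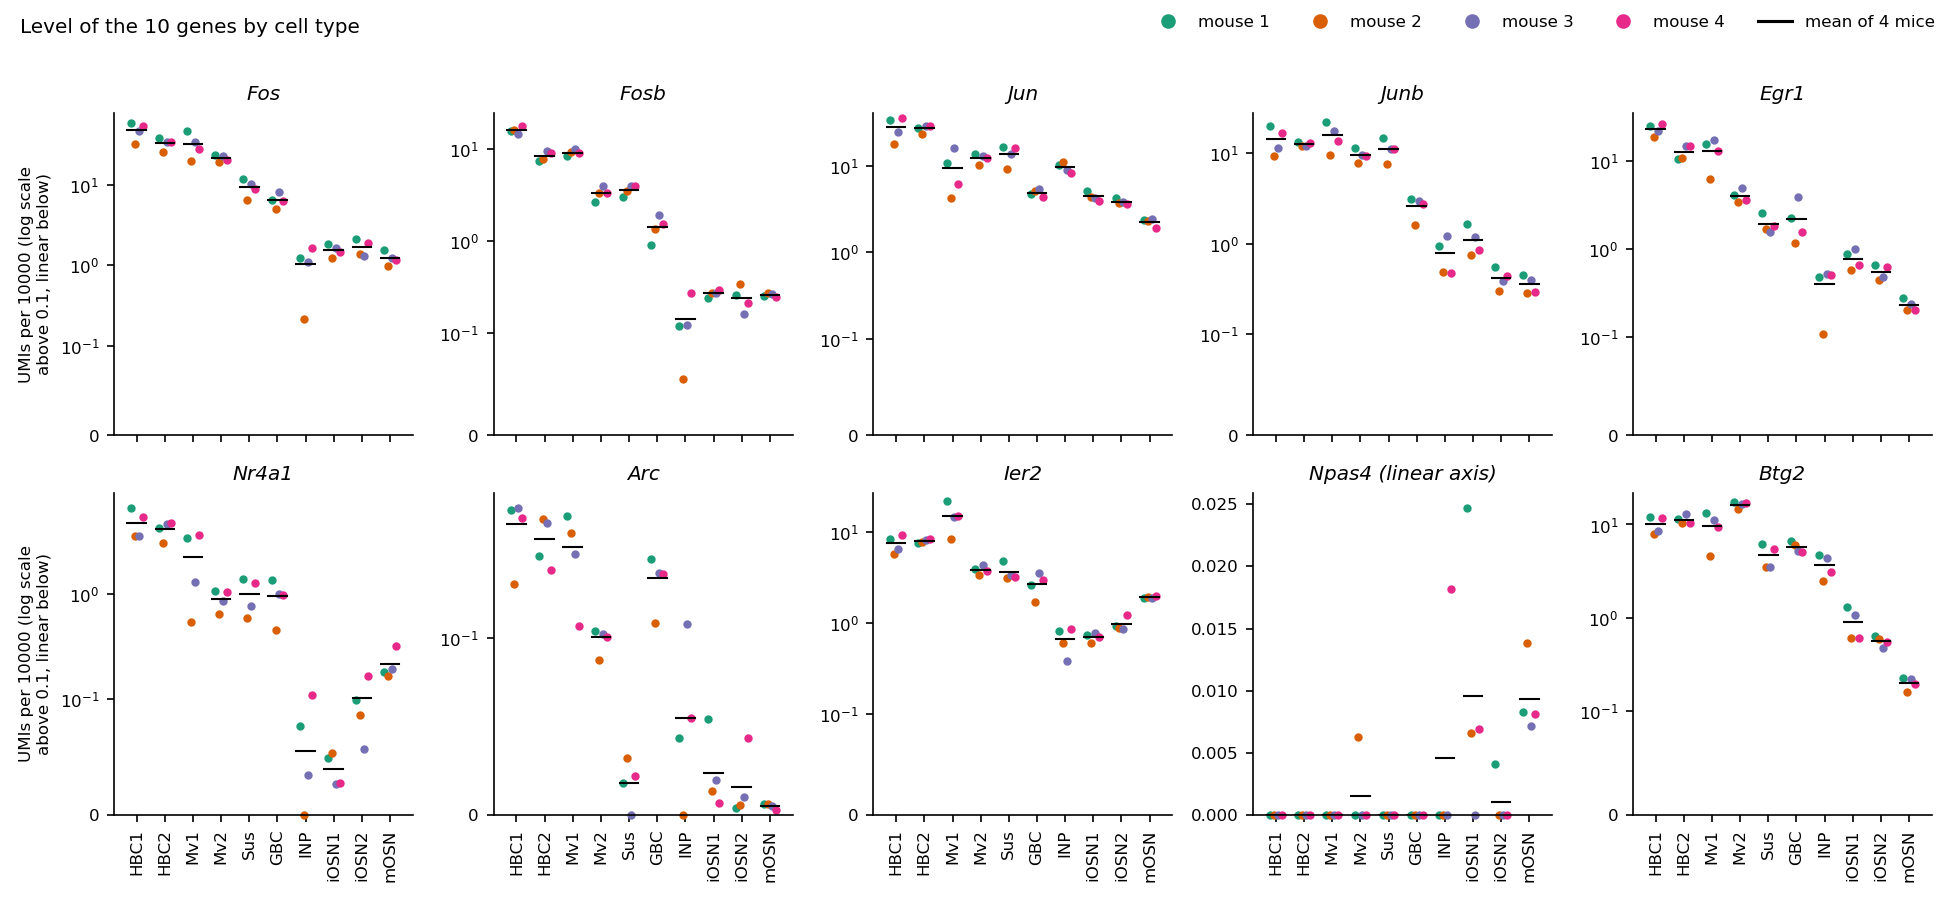
UMIs per 10000 of each of the 10 genes in 10 cell types, with 1 point per mouse and a bar at the mean of 4 mice, on a log axis above 0.1 (Npas4 on a linear axis). Fos ran from 47.9 in HBC1 to 1.24 in mOSN and 1.05 in INP, while Ier2 and Nr4a1 were higher in mOSN than in INP, iOSN1 or iOSN2.

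Fos and Fosb encode the Fos subunits of the AP-1 transcription factor, which act only when paired with a Jun protein. Fos (chr12:85473890-85477273) stood at 59.0, 32.6, 47.0 and 53.2 in HBC1 of mice 1 to 4, and at 1.56, 0.990, 1.25 and 1.15 in mature OSNs. The lowest HBC1 value was thus many times the highest value in mature OSNs. In HBC2 the values were 38.0, 25.3, 34.3 and 33.9, in Mv2 23.2, 19.0, 23.1 and 20.5, and in Sus 11.6, 6.52, 10.3 and 8.82. Within the lineage, the 4 types INP (1.05 ± 0.599), iOSN1 (1.54 ± 0.268), iOSN2 (1.68 ± 0.391) and mOSN (1.24 ± 0.240) overlapped for Fos, and GBC (6.51 ± 1.27) lay above them in every mouse. Within each mouse Fos was higher than in mature OSNs in iOSN1, by 1.19 to 1.30 times, and in iOSN2, by 1.05 to 1.65 times. Fosb (chr7:19302696-19310051) was at 15.9 ± 1.40 in HBC1 and at 0.2503, 0.269, 0.261 and 0.245 in mature OSNs. Its values in mature OSNs overlapped those of iOSN1 (0.268 ± 0.0228) and iOSN2 (0.241 ± 0.0749).

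Jun and Junb encode AP-1 partners, of which JunB can restrain the activity of Jun. Jun (chr4:95049034-95052222) stood at 34.1, 17.6, 24.8 and 35.1 in HBC1 and at 2.34, 2.27, 2.42 and 1.92 in mature OSNs. Unlike Fos, Jun was also high in neuronal precursors. INP held 10.3, 11.02, 8.82 and 8.22 UMIs per 10000, above GBC (4.88 ± 0.453), iOSN1 (4.41 ± 0.539) and iOSN2 (3.83 ± 0.296) in every mouse. Mature OSNs had the lowest Jun of the 10 types and did not overlap iOSN2, the next above. Junb (chr8:84974484-84978718) had its highest mean in Mv1, at 22.0, 9.50, 17.3 and 13.4, which overlapped HBC1 (14.2 ± 4.76). Its lowest mean was in mature OSNs, at 0.454, 0.282, 0.394 and 0.290, which overlapped iOSN2 (0.418 ± 0.105).

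Egr1, a zinc finger factor, and Nr4a1, an orphan nuclear receptor, are widely used activity readouts. Egr1, on chromosome 18, stood at 24.8, 18.4, 22.1 and 26.5 in HBC1 and at 0.281, 0.203, 0.240 and 0.201 in mature OSNs, with GBC (2.20 ± 1.19) and Sus (1.92 ± 0.447) between them. The mature OSNs had the lowest mean of the 10 types and overlapped INP (0.404 ± 0.197), where mouse 2 had 2 UMIs. Nr4a1 (chr15:101254269-101274795) had another order. It was at 4.85 ± 1.52 in HBC1 and 0.913 ± 0.199 in Mv2, was at 0.0392 ± 0.0140 in iOSN1 and 0.102 ± 0.0467 in iOSN2, and stood at 0.180, 0.165, 0.192 and 0.324 in mature OSNs. Mature OSNs lay above both immature types within each mouse. Npas4 (chr19:4984355-4990316), a factor known from brain neurons as induced by depolarisation with little response to other stimuli, had 60 UMIs in all retained cells, 50 of them in mature OSNs. Its level there was 0.00832, 0.0139, 0.00716 and 0.00810 UMIs per 10000 (mean 0.00936). In iOSN1 it was 0.00957 ± 0.0106 from 7 UMIs, and the values overlapped those of mature OSNs. No Npas4 UMI was seen in GBC, Sus, HBC1, HBC2 or Mv1. A count of 0 there allows a level (3 UMIs over the 4 mice) of up to 0.0133 in GBC, 0.0138 in Sus, 0.0289 in HBC1 and 0.0575 in Mv1, so a level like that of mature OSNs was not detectable in these types, and of up to 0.00658 in HBC2.

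Arc (chr15:74669083-74672570), a synaptic protein that takes part in endocytosis of glutamate receptors, was at 0.633, 0.216, 0.648 and 0.565 in HBC1 and at 0.00594, 0.00607, 0.00477 and 0.00295 in mature OSNs, where it had 27 UMIs in all. Ier2 (chr8:84661331-84662852), a nuclear protein of the first wave, stood at 22.1, 8.42, 14.6 and 15.1 in Mv1 and at 1.89, 1.95, 1.89 and 1.98 in mature OSNs. The 4 mature values lay close together, with an SD of 0.0452, and were above every value of iOSN2 (0.914, 0.886, 0.855 and 1.21) and iOSN1 (0.705 ± 0.0775). Btg2 (chr1:134075170-134079120), an antiproliferative protein known from precursors about to make neurons, was highest in Mv2, at 17.3, 14.5, 16.7 and 16.8. It went from 5.73 ± 0.740 in GBC and 3.67 ± 1.06 in INP to 0.904 ± 0.352 in iOSN1, 0.564 ± 0.0724 in iOSN2 and 0.228, 0.160, 0.223 and 0.194 in mature OSNs, the lowest of the 10 types.

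Blood cells gave a gauge of how much of a neuronal level free RNA could carry. Fos was at 0.293 ± 0.205 there and at 1.24 ± 0.240 in mature OSNs, and in cells brought down to 3000 UMIs each it was seen in 3.13% ± 2.80 of blood cells (8 of 231 cells) and in 25.5% ± 2.62 of mature OSNs. Unthinned medians were 6212 UMIs in blood cells and 5147 in mature OSNs, as means of the mouse medians. Jun was seen in 5.94% ± 2.62 of blood cells and 40.7% ± 2.97 of mature OSNs, and Ier2 in 6.35% ± 4.70 and 42.1% ± 0.763. These 3 genes stood well above the blood gauge in mature OSNs. Egr1 (3.93% ± 4.19 against 5.17% ± 0.696) did not, and its presence in mature OSNs at large is not distinguished from background. Fosb was seen in 1.76% ± 2.04 of blood cells against 6.42% ± 0.690 of mature OSNs and Junb in 2.08% ± 4.17 against 8.70% ± 1.38, while Nr4a1 was seen in 0 of 231 blood cells, which allows a share of up to 1.30%, and in 5.51% ± 1.51 of mature OSNs. Btg2 was seen in 46.1% ± 2.19 of blood cells, which therefore give no gauge for it. At this depth 79.9% ± 1.63 of mature OSNs held a UMI of at least 1 member, and 99.9% ± 0.133 of Mv2 and 98.6% ± 1.22 of HBC2 did. Fos alone was seen in 93.4% ± 3.92 of HBC2 and 96.2% ± 4.48 of HBC1. Immune cells, also removed by the authors, had Fos at 8.43 ± 2.01 and Junb at 11.8 ± 2.72 UMIs per 10000.

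Mature OSNs were compared with the mean of the 5 non-neuronal types (Sus, HBC1, HBC2, Mv1 and Mv2) by edgeR's quasi-likelihood test on summed UMIs with the mouse as a block. Of 12549 genes tested, 33.6% were called lower in mature OSNs and 40.4% higher (74% in all) at a Benjamini-Hochberg adjusted p under 0.05. The 9 members tested were called lower, with a median log2 fold change of -4.65 beside 0.03 over all genes tested. Arc is counted there as a description, since it had 27 UMIs in mature OSNs and passed the filter on low counts through the types where it was high. Npas4 fell below that filter. Without it Npas4 was called in the opposite direction, higher in mature OSNs (adjusted p = 0.00588 by edgeR), where it had 50 UMIs and the 5 non-neuronal types 1 in all, in Mv2. A level like that of mature OSNs was not detectable in Sus, HBC1 or Mv1, so this call is a description and says nothing about those types. Types were drawn by the authors from expression that may include these genes, so these p-values are descriptive. The median percent of mitochondrial UMIs was 1.18 in mature OSNs and from 2.07 (HBC2) to 3.07 (Mv2) in the non-neuronal types. Its part was not tested. Btg2 differed most (log2 fold change -5.52 ± 0.19 SE, adjusted p = 3.11e-21), then Junb (-5.05 ± 0.16) and Egr1 (-5.01 ± 0.20). Egr1 in mature OSNs was not distinguished from background, and Btg2 had no gauge of it, so their folds and places carry that limit. Arc was at -4.95 ± 0.52, and at -4.75 with no filter. Fos was lower by 19.4-fold (-4.28 ± 0.16, adjusted p = 1.18e-20). The smallest differences were those of Jun (-2.80 ± 0.18) and Ier2 (-1.70 ± 0.14, 3.26-fold). Arc was called against HBC1, HBC2, Mv1 and Mv2 each alone and not against Sus alone (adjusted p = 0.0868), and its call was lost with cells thinned to 5000 UMIs (adjusted p = 1).

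Other genes of the first wave went the same way. Of 38 further primary response genes, 36 were tested and 31 were called lower in mature OSNs than in the non-neuronal types and 2 higher, with a median log2 fold change of -3.53. By the smallest p these were Zfp36l1 (-8.49 ± 0.18), which binds and destabilises AU-rich messages, Nr4a2 (-7.38 ± 0.22), a nuclear receptor related to Nr4a1, Ier3 (-7.82 ± 0.17), which protects against cell death, and Klf4 (-6.47 ± 0.17), an epithelial transcription factor. Heat shock genes, which code for chaperones, were mixed, with 8 of 15 lower, 5 higher (86.7% called, beside 74% of all genes) and a median of -0.50. Hspa1b (-5.08 ± 0.24) and Hspb1 (-7.17 ± 0.34) were lower, and Dnaja1 (1.29 ± 0.06) and Hsp90ab1 (0.72 ± 0.04) higher. Genes known to follow activity in neurons, 13 of 17 tested, had 6 called higher and 5 lower and a median of 1.68. With 84.6% called beside 74% of all genes, the count is no result about the list. Nptx2 (4.70 ± 0.16), a secreted pentraxin of synapses, and Kirrel2 (4.88 ± 0.18), an adhesion molecule of OSN axons, were higher, while Rgs2 (-5.18 ± 0.23), a brake on G protein signals, and Lmo4 (-2.05 ± 0.11), a transcriptional cofactor, were lower.

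**Figure D2:**
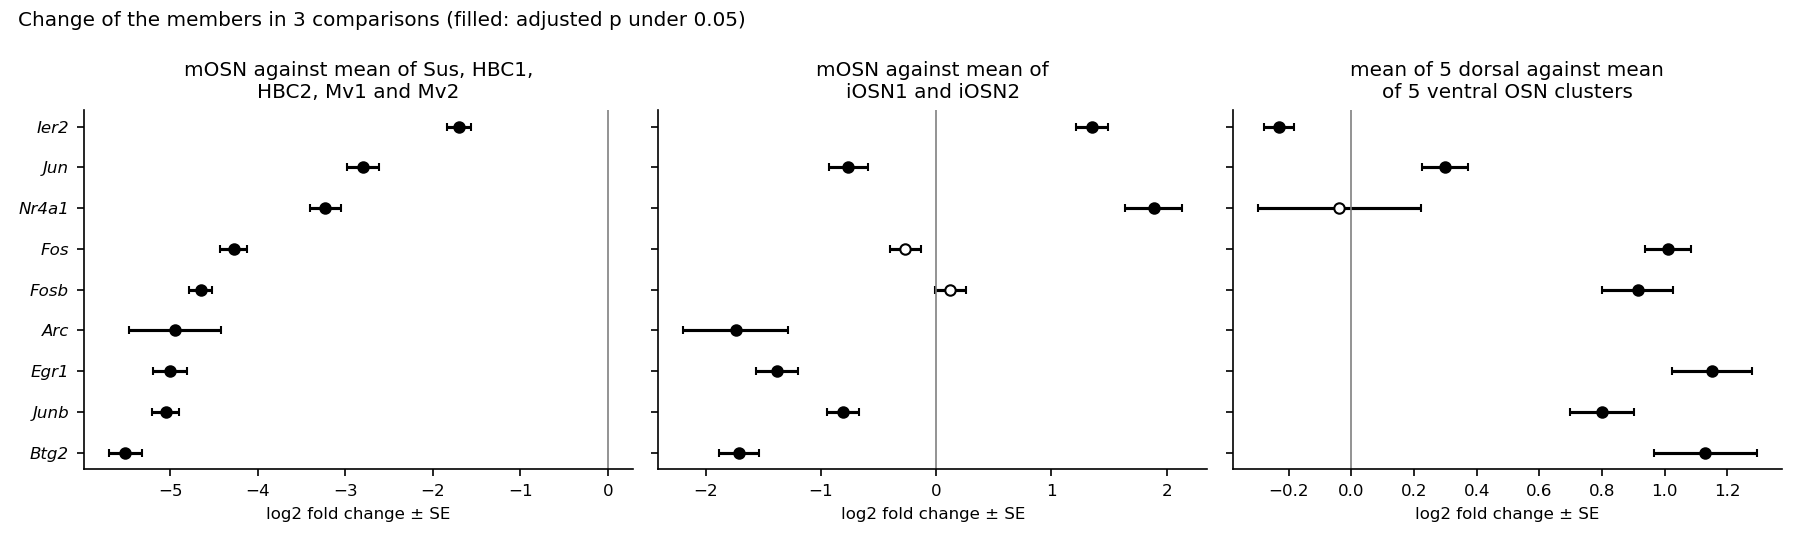
Log2 fold change ± SE of the tested members in 3 comparisons by edgeR's quasi-likelihood test on sums from 4 mice, with filled points where the adjusted p is under 0.05. All 9 lie left of 0 against non-neuronal types, only Ier2 and Nr4a1 were called higher than in immature OSNs, and 6 of 8 were called higher in dorsal clusters.

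Within the lineage the members split. Against the mean of iOSN1 and iOSN2, 53.4% of 12549 genes were called, 28.2% higher and 25.2% lower in mature OSNs. Of the 9 members tested, 5 were lower and 2 higher. Arc is counted among these as a description only. It had 27 UMIs in mature OSNs, 17 in iOSN1 and 11 in iOSN2, and passed the filter through other types. The median percent of mitochondrial UMIs was 1.18 in mature OSNs, 0.634 in iOSN1 and 0.582 in iOSN2. Median UMIs were 5147, 7129 and 7636, and the part of these differences was not tested. Nr4a1 was higher in mature OSNs by 3.70-fold (log2 1.89 ± 0.25, adjusted p = 1.15e-07), and Ier2 by 2.55-fold (1.35 ± 0.14, adjusted p = 1.83e-09). Btg2 (-1.71 ± 0.17), Egr1 (-1.38 ± 0.18), Arc (-1.74 ± 0.46), Junb (-0.81 ± 0.14) and Jun (-0.76 ± 0.17, adjusted p = 0.000336) were lower. Egr1 in mature OSNs was not distinguished from background and Btg2 had no gauge of it, so their folds carry that limit here too. The call for Arc was lost without mouse 4 (adjusted p = 0.0992). Fos (-0.27 ± 0.14, adjusted p = 0.0988) and Fosb (0.12 ± 0.13, adjusted p = 0.461) did not pass in edgeR, while Fos passed in DESeq2 (adjusted p = 0.0403) and without the cells of highest doublet score (adjusted p = 0.0336). Of 36 other primary response genes tested, 19 were called (52.8%), near the 53.4% of all genes, so their count is no result about the list. In mature OSNs 12 were lower and 7 higher, with a median of -0.28 over the list. Among those called were Dusp5 (1.65 ± 0.16), a phosphatase that shuts off ERK, Klf2 (1.65 ± 0.20), Nr4a2 (-3.43 ± 0.47) and Klf10 (-1.02 ± 0.15). Of 15 heat shock genes tested, 5 were called (33.3%), a smaller share than over all genes. All 5 were higher, so 33.3% of the list was called higher beside 28.2% of all genes tested, and this count is no result about the list. Bag3 (2.51 ± 0.47) was first by fold. Of 13 activity-dependent genes tested, 10 were called (76.9%). Higher were 5, such as Nptx2 (2.57 ± 0.14) and Pcp4l1 (2.41 ± 0.26), a calmodulin-binding peptide, and lower were 5, such as Lmo4 (-1.18 ± 0.11).

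Mature OSNs with a receptor identity had been divided by the authors into 10 clusters, 5 dorsal (D.) and 5 ventral (V.), named for Cd36, Cd55, Dlg2 or Calb2 or for none of these (Dorsal and Ventral). The members were not level over these clusters. Cd36+ D. neurons, 197 cells, stood out with Fos at 6.30, 3.52, 5.79 and 4.93, above every value of the other 9 clusters. The Ventral cluster, 4600 cells, had 1.04, 0.704, 0.888 and 0.853. In Cd36+ D. a Fos UMI was present in 52.6% ± 5.34 of neurons thinned to 3000 UMIs, and in Ventral in 21.0% ± 2.05. Egr1 at 1.49, 1.33, 1.10 and 0.940 was likewise above every value elsewhere, and its share of 19.0% ± 4.83 of these neurons was above the 3.93% ± 4.19 of blood cells. Fosb (1.05 ± 0.142), Junb (1.72 ± 0.836) and Btg2 (0.784 ± 0.234) had their highest means in the same cluster.

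The next clusters in the order of Fos were 2 dorsal ones without Cd36 in their name, Cd55+ D. (2.37 ± 0.875) and Dlg2+ D. (2.01 ± 0.380), which were also above Cd36+ V. in mean Egr1 (0.373 ± 0.192 and 0.498 ± 0.0622). Cd36+ V., the ventral neurons with Cd36, a scavenger receptor found on cilia of a minority of OSNs, had Fos at 1.66 ± 0.304, Fosb at 0.398 ± 0.0396 and Egr1 at 0.320 ± 0.0398. Its Fos was above that of Dorsal (1.51 ± 0.264) in 2 of 4 mice. Against Ventral it was higher in each mouse, by 1.71 to 2.09 times for Fos, 1.88 to 2.07 times for Fosb and 1.96 to 2.67 times for Egr1, but not for Btg2 (0.483 to 1.43 times). The markers of other cells in Cd36+ D. were low, with horizontal basal markers at 0.0451 ± 0.0695, immune markers at 0.0270 ± 0.0539, sustentacular markers at 0.494 ± 0.264 and microvillar markers at 0.562 ± 0.190. In the Ventral cluster the same sums were 0.0274 ± 0.0160, 0.0353 ± 0.0168, 0.144 ± 0.0185 and 0.289 ± 0.0135. Sustentacular and microvillar markers were thus higher where Fos was high, and their part in the result was not tested. Mature OSN markers were at 189 ± 4.999 in Cd36+ D. and 289 ± 5.35 in Ventral. Median UMIs per neuron were 5273 in Cd36+ D. and 5120 in Ventral, and the percent of mitochondrial UMIs was 0.968 and 1.32.

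**Figure D3:**
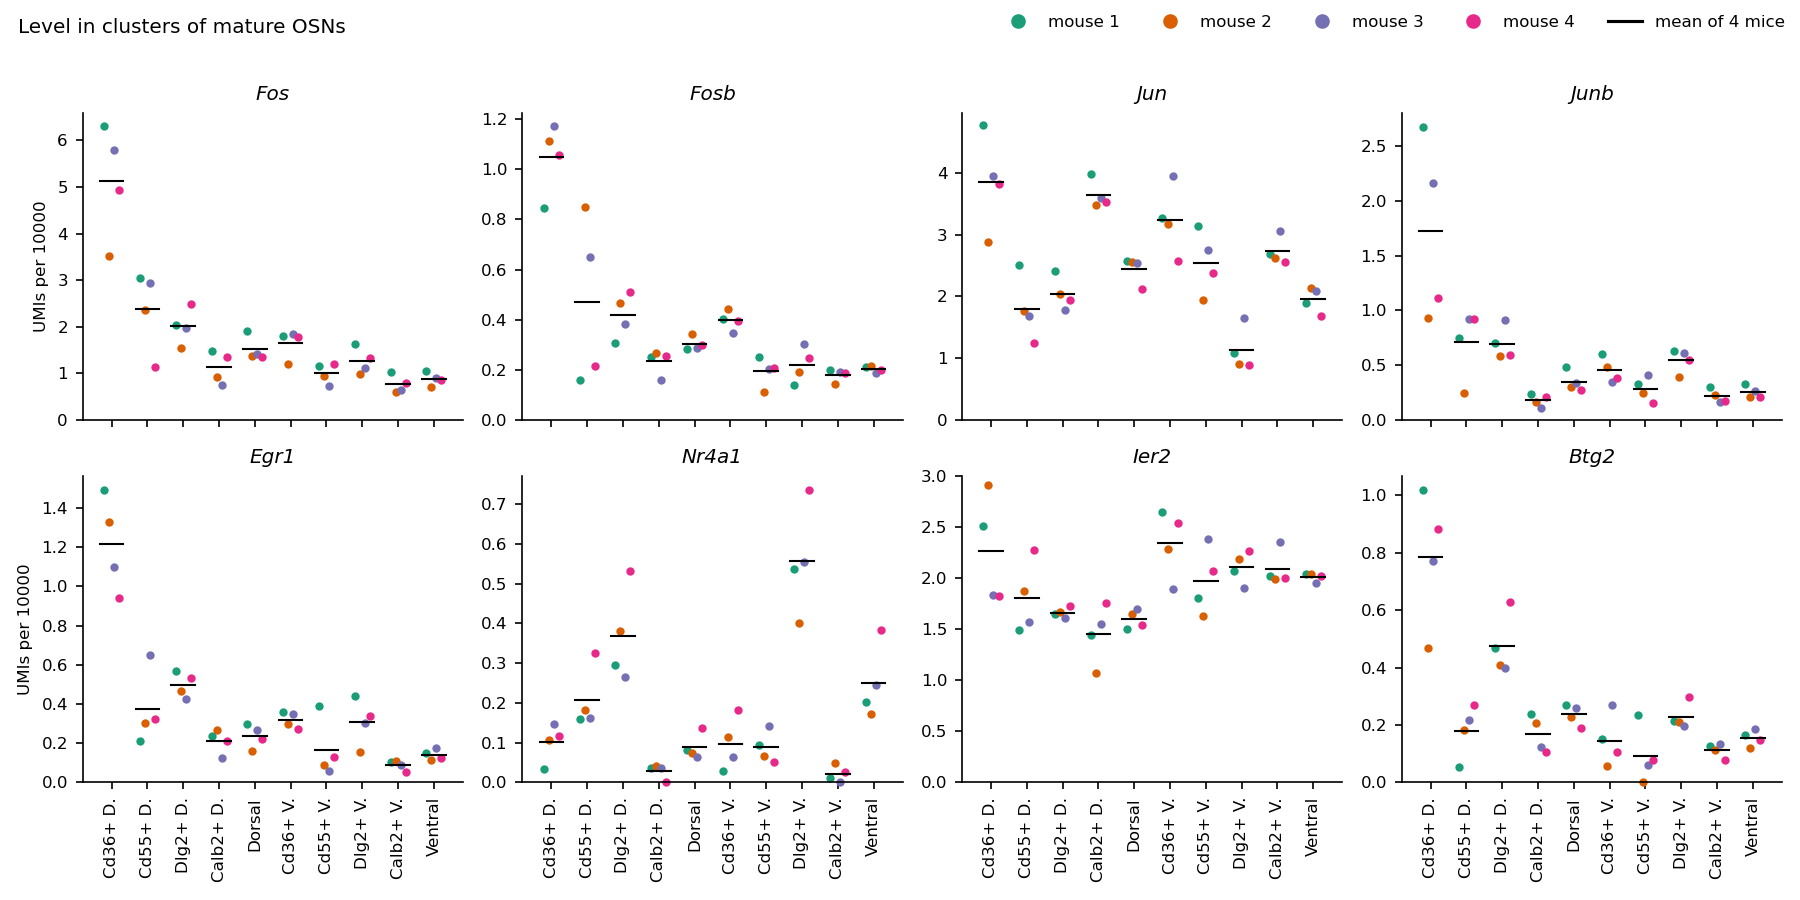
UMIs per 10000 of 8 members in the 10 clusters of mature OSNs, with 1 point per mouse and a bar at the mean of 4 mice. Fos, Fosb, Junb, Egr1 and Btg2 peak in Cd36+ D., Nr4a1 in Dlg2+ V. (0.557) and Jun in Cd36+ D. (3.86) and Calb2+ D. (3.65).

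Nr4a1, Jun and Ier2 followed other orders. Nr4a1 was highest in Dlg2+ V., at 0.538, 0.4003, 0.555 and 0.734, and Dlg2+ D., at 0.295, 0.380, 0.265 and 0.531, and lowest in Calb2+ V. (0.0212 ± 0.0208) and Calb2+ D. (0.0281 ± 0.0189). The Dlg2+ and Calb2+ neurons did not overlap in Nr4a1 on either side. Jun had its highest mean in Cd36+ D. (3.86 ± 0.780) and was at 3.25 ± 0.567 in Cd36+ V. Nr4a1 was in the middle of its order in both. Jun was also high where Nr4a1 was lowest, at 3.65 ± 0.228 in Calb2+ D. and 2.73 ± 0.221 in Calb2+ V. Its lowest mean was 1.13 ± 0.356 in Dlg2+ V. Ier2 ran from 1.46 ± 0.286 in Calb2+ D. to 2.34 ± 0.337 in Cd36+ V. Among 8684 genes, 49.1% were called as different among clusters by edgeR, and the 8 members tested were all called, which is descriptive since the clusters were drawn on expression. Their F values ran from 11.1 (Ier2) to 64.2 (Fos), beside a median of 2.13 over all genes, and all 8 remained called with both Cd36+ clusters left out (46% of genes), where Fos had an F of 37.5. Of the other lists, 13 of 16 primary response genes were called, first Maff, Dusp1, Nfkbia and Sgk1, 7 of 10 heat shock genes, first Hsp90ab1, and 6 of 7 activity-dependent genes, with Pcp4l1 (F = 628) and S100a5 (F = 385), a calcium-binding protein of active OSNs.

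Averaged over clusters, dorsal neurons held more of most members than ventral ones. The mean of the 5 dorsal clusters was set against that of the 5 ventral ones, where 9.91% of 8684 genes were called higher in dorsal and 10.9% lower (20.8% in all). Of 8 members tested, 6 were called higher in dorsal clusters, with Egr1 (log2 fold change 1.15 ± 0.13, adjusted p = 7.67e-15), Btg2 (1.13 ± 0.16), Fos (1.01 ± 0.07, 2.02-fold, adjusted p = 3.68e-14), Fosb (0.91 ± 0.11), Junb (0.80 ± 0.10) and Jun (0.30 ± 0.07). Ier2 was lower (-0.23 ± 0.05, adjusted p = 5.62e-05). Nr4a1 (-0.04 ± 0.26) did not pass, although its level was lower in Dorsal (0.0891 ± 0.0325) than in Ventral (0.2503 ± 0.0936) in each mouse. The member median was 0.86, beside -0.0030 over all genes. The larger Dorsal and Ventral clusters alone showed it for Fos, at 1.90, 1.37, 1.42 and 1.35 in Dorsal against at most 1.04 in Ventral. Each dorsal cluster had a higher mean of Fos than its ventral counterpart. Junb and Jun had 1 exception each. Mean Junb was 0.180 ± 0.0571 in Calb2+ D. and 0.213 ± 0.0609 in Calb2+ V. Jun was lower in Cd55+ D. (1.80 ± 0.526) than in Cd55+ V. (2.55 ± 0.513) in each mouse. Without the Cd36+ clusters the Fos difference was 0.84 and that of Egr1 0.94, and every tested member but Nr4a1 passed (19.1% of genes called), while with neurons thinned to 5000 UMIs Jun no longer did (adjusted p = 0.108).

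Of 16 other primary response genes tested, 4 were called between dorsal and ventral clusters (25%), near the 20.8% of all genes, so their count is no result about the list. Called higher in dorsal clusters were 3 (Dusp1 by 0.32 ± 0.05, Klf2 by 0.57 ± 0.12 and Klf6 by 0.58 ± 0.12) and Ier5 was called lower (-0.35 ± 0.08). Of 10 heat shock genes, 6 were lower and 1 higher, with a median of -0.08, among them Hspa8 (-0.16 ± 0.02) and Hsp90aa1 (-0.14 ± 0.02), which code for cytosolic chaperones. Of the 7 activity-dependent genes tested, Pcp4l1 (0.53 ± 0.08) and S100a5 (0.19 ± 0.05) were higher and Kirrel2 lower (-0.51 ± 0.06).

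Neurons that express the same receptor form a population, and the receptor calls use receptor UMIs alone, so the grouping did not use the members. In all, 960 populations were identified in 9791 neurons, and 134 of them with 20 or more neurons (4143 neurons) are described. Fos ran from 0.0410 to 10.95 UMIs per 10000 over these populations with a median of 1.04, Jun from 0.560 to 6.01 with a median of 2.09 and Ier2 from 0.394 to 3.57 with a median of 1.98, as means over mice. The rarer members were at 0 in some populations, Junb in 6, Fosb in 15, Egr1 in 24, Btg2 in 26 and Nr4a1 in 37, and reached 2.50, 1.31, 3.81, 1.54 and 1.38 in the highest. Npas4 had 18 UMIs and Arc 7 over all 134. Only populations with 5 or more neurons in each mouse were tested, which left 42 with 1782 neurons, and of the members Fos, Jun and Ier2 reached the minimum of 0.3 UMIs per 10000. Of 5042 genes, 25.7% were called as different among these populations by edgeR, and Jun (F = 3.28, adjusted p = 2.20e-06), Fos (F = 2.45, adjusted p = 0.000523) and Ier2 (F = 1.83, adjusted p = 0.00914) were among them. Beside their F values, the median over all genes was 1.21.

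The Ier2 call was not firm. Its adjusted p by edgeR was 0.355 without mouse 1, 0.285 without mouse 4, 0.462 for neurons with exactly 1 receptor, 0.562 with neurons thinned to 5000 UMIs and 0.0639 over the 31 populations that lie mostly in ventral clusters. Jun was lost under thinning (adjusted p = 0.0683) and passed within the ventral populations (0.000141). Fos passed there too (adjusted p = 0.0226), with 21.2% of genes called, and under every other alternative run. With a lower minimum of 0.1 UMIs per 10000, Nr4a1 (adjusted p = 4.63e-06), Egr1 (0.00827) and Btg2 (0.0131) were called as well, and Fosb (0.408) and Junb (0.112) were not. Egr1 and Btg2 carry the limit on background given above.

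**Figure D4:**
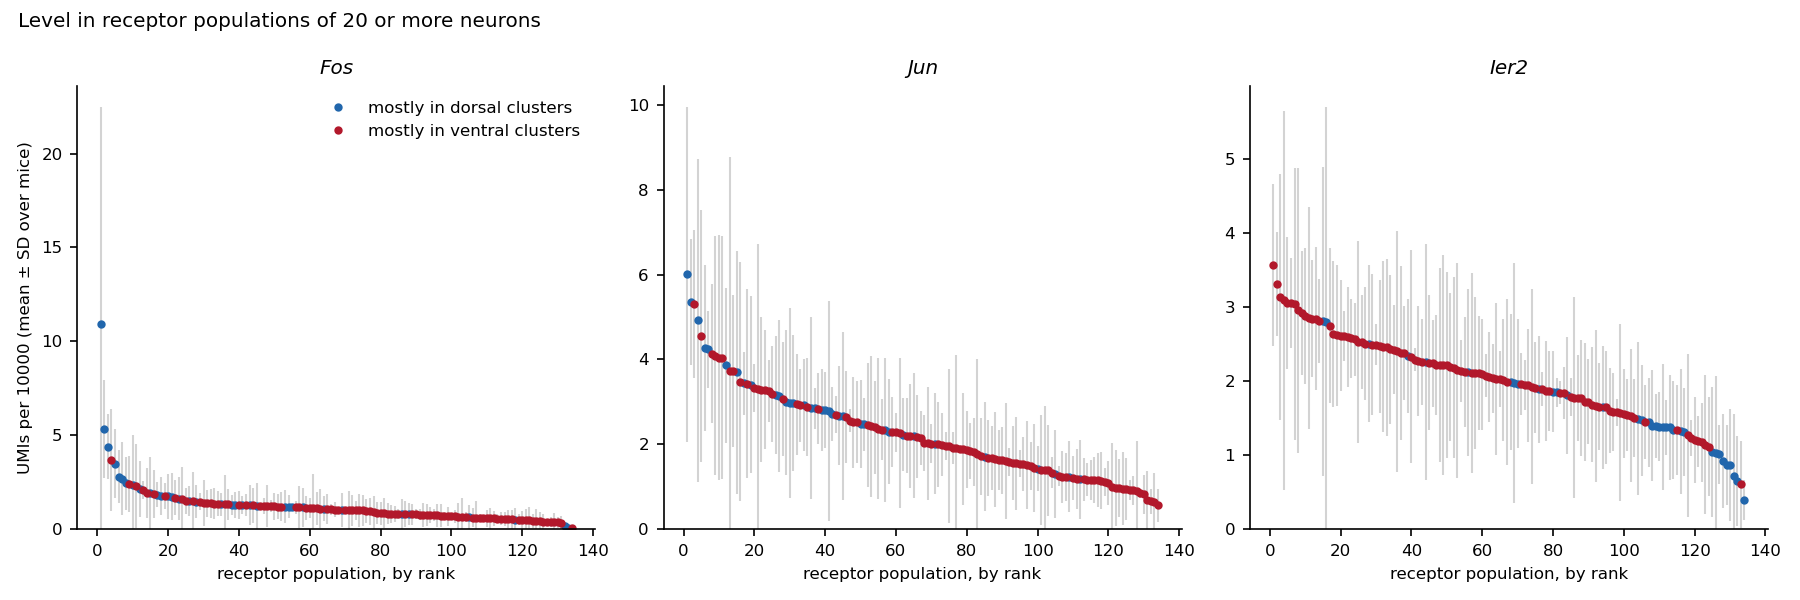
UMIs per 10000 of Fos, Jun and Ier2 in the 134 receptor populations with 20 or more neurons, ordered by mean, with the SD over mice as a grey line. Fos has a steep head led by Olfr553 (10.95) above a median of 1.04, whereas Ier2 declines from 3.57 to 0.394 around a median of 1.98.

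The Fos order was led by Olfr553, 21 neurons that all lay in Cd36+ D., with 10.6, 3.47, 27.4 and 2.38 UMIs per 10000, so its mean of 10.95 carries an SD of 11.5. Olfr592 had 5.34, 4.07, 8.94 and 2.98, and Olfr655 had 6.15, 4.36, 5.05 and 2.03. All of these values exceeded the highest value of all mature OSNs in a mouse. The populations were picked as the highest of 134, so this is no separate result. Olfr553, Olfr592 and Olfr655 held as few as 3, 2 and 4 neurons in a mouse and were not among the 42 tested. Olfr806 (2.07, 1.49, 7.55 and 3.58) and Olfr681 (3.49 ± 1.83) came next. The means of Olfr553 and Olfr806 rest in large part on mouse 3. At the other end Olfr868 had 1 Fos UMI in 21 neurons and Olfr826 1 in 24, followed upward by Olfr411 (0.170 ± 0.198), Olfr60 (0.303 ± 0.370) and Olfr1252 (0.361 ± 0.294). Among the 42 tested populations the ends were Olfr419, at 1.01, 3.32, 2.46 and 4.41, and Olfr6, at 0.357, 0, 0.630 and 0.537, which were singled out after their values were seen.

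Jun was highest in Olfr810 (6.01 ± 3.94), Olfr1361 (7.23, 5.76, 3.78 and 4.67), Olfr972 (5.30 ± 1.75), Olfr553 (5.21, 1.89, 10.2 and 2.38, so highest in mouse 3) and Olfr868 (4.55 ± 2.97). Olfr868 had 1 neuron in 1 of the mice, and its Jun ran from 1.82 to 7.90 over mice. The lowest were Olfr6 (0.713, 0, 0.630 and 0.895), Olfr1349 (0.649 ± 0.674), Olfr117 (0.654 ± 0.290, n = 3 mice), Olfr330 (0.681 ± 0.683) and Olfr524 (0.821 ± 0.453), which lay mostly in the Ventral cluster. Olfr1361 and Olfr6 were also the ends of the tested populations for Jun. For Ier2 the highest were Olfr806 (3.11, 5.20, 3.02 and 2.95), Olfr1228 (3.31 ± 0.702), Olfr392 (3.13 ± 1.66), Olfr732 (6.74, 0.799, 2.16 and 2.65) and Olfr17 (3.05 ± 0.886). The place of Olfr732 rests on mouse 1. It had 1 neuron in 1 of the mice, and its level with the mice pooled was 2.09, near the median of populations. The lowest for Ier2 were Olfr884 (0.521, 0, 0.425 and 0.629), Olfr124 (0.603 ± 0.590), Olfr969 (0.648 ± 0.608), Olfr609 (0.715 ± 0.842) and Olfr73 (0.863 ± 0.760). Of the 10 highest for Ier2, 7 were mostly Ventral, a cluster that held 76 of the 134.

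The order of populations was only partly shared between mice. Over the 42 tested populations the Pearson correlation between pairs of mice averaged 0.203 for Fos (from -0.0548 to 0.418 over 6 pairs), 0.322 for Jun (0.0841 to 0.521) and 0.0967 for Ier2 (-0.185 to 0.407). A population in a mouse often held few neurons, down to 5. By cluster, the median of Fos was 1.48 over the 22 populations mostly in Dorsal and 0.821 over the 76 mostly in Ventral, and that of Ier2 was 1.39 and 2.20. The smaller clusters, with few populations each, were not alike for Fos. The 2 populations mostly in Cd36+ D. lay far apart, with Olfr553 at 10.95 and Olfr810 at 1.30, the latter below the median of Dorsal. The 3 in Cd36+ V. ran from 1.36 to 3.67, and the 1 in Cd55+ D., Olfr592, was at 5.33. The median was 0.896 in Cd55+ V. (6 populations), 1.24 in both Dlg2+ D. (3 populations) and Dlg2+ V. (7), 0.792 in Calb2+ D. and 0.773 in Calb2+ V. (7 each). Among the other lists, beside 25.7% of all genes, 8 of 11 primary response genes differed among populations, first Ppp1r15a (F = 3.68), Jund (3.87), Dusp1 (3.04) and Nfkbia (2.80), 4 of 10 heat shock genes, first Hsp90aa1 (7.56), and 4 of 5 activity-dependent genes, Pcp4l1 (76.8), S100a5 (56.2), Kirrel2 (31.5) and Nptx2 (2.44).

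In single mature OSNs with all their UMIs, 35.0% of 10519 neurons held a Fos UMI, 14.1% held 2 or more, 1.99% held 5 or more and 30 neurons held 10 or more. Those with 5 or more carried 22.0% of all Fos UMIs of the type. Neurons with 5 or more Fos UMIs had a median of 6932 UMIs against 4514 in those with none, were in Cd36+ D. for 16.7% against 0.921%, and were among the top 4% of doublet scores for 3.35% against 2.00%. UMIs of 2 or more receptors were seen in 38.3% against 29.5%. Neurons with 5 or more Fos UMIs had 0.609 microvillar, 0.269 sustentacular and 7.09 immature OSN marker UMIs per 10000, against 0.312, 0.181 and 4.99 in neurons without Fos. Horizontal basal markers were at 0.0197 and immune markers at 0.0393, against 0.0222 and 0.0352, and at the lower limit of 2 or more Fos UMIs basal markers were at 0.0415. Neurons were grouped here by Fos UMIs without thinning, so the greater depth follows in part from the grouping. The 4 mice were pooled for these values, which have no SD over mice. Mouse 1 gave 2625 of the 6899 Fos UMIs, and depth also differed between mice, so differences between mice enter these contrasts. Microvillar, sustentacular and immature markers were also higher in the neurons with most Fos, and their part was not tested. Mature OSN markers went from 272 to 214 UMIs per 10000.

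Other members were more frequent in neurons with Fos. In neurons thinned to 3000 UMIs, Egr1 was seen in 11.8%, 7.24%, 9.17% and 8.18% of those with a Fos UMI and in 3.84%, 3.88%, 3.85% and 3.54% of those without, a ratio of 2.41. Fosb (10.2% ± 2.09 against 5.12% ± 0.537), Junb (13.7% ± 2.95 against 6.93% ± 0.616) and Btg2 (8.55% ± 1.46 against 4.57% ± 0.478) were likewise higher in all 4 mice, without overlap. Egr1 in mature OSNs at large was not distinguished from background and Btg2 had no gauge of it, so their shares carry that limit. Nr4a1 (6.79% ± 1.75 against 5.07% ± 1.43) and Jun (45.1% ± 2.41 against 39.2% ± 3.36) were higher in each mouse, but the values overlapped. Ier2 was higher in 3 of 4 mice (44.3% ± 2.65 against 41.3% ± 0.507). No test was run on these shares, which come from the same neurons and counts.

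**Figure D5:**
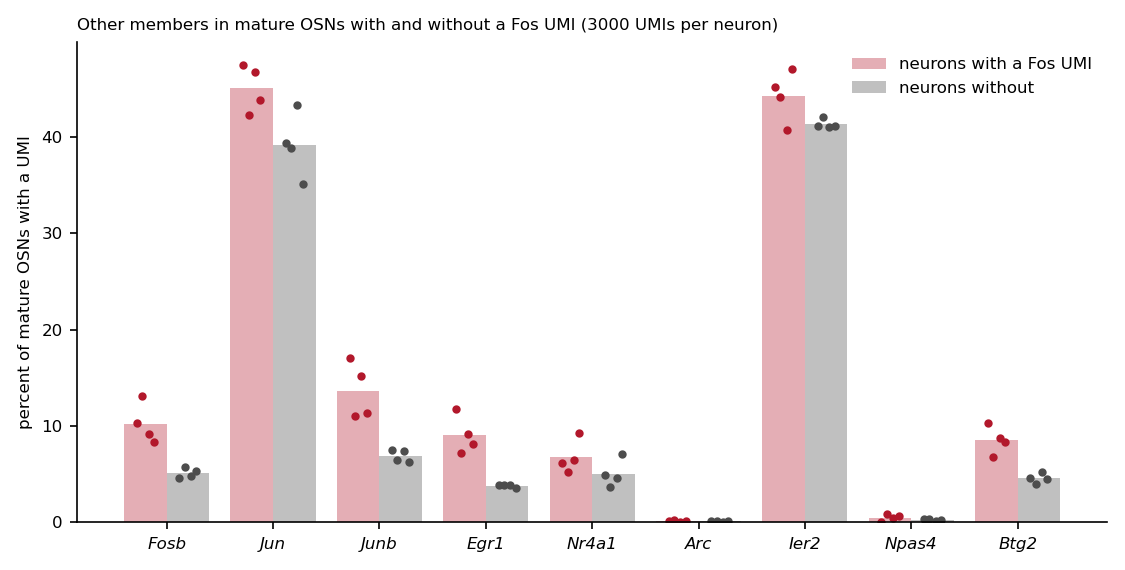
Percent of mature OSNs with a UMI of each other member, in neurons with and without a Fos UMI at 3000 UMIs per neuron, with bars at the mean and points for the 4 mice. Fosb, Junb, Egr1 and Btg2 stand apart in all 4 mice, while Jun and Ier2 differ little.

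For Fos, Jun, Junb and Ier2, the members above 0.3 UMIs per 10000 in mature OSNs, the most similar genes were ranked by Pearson's r on log2(UMIs per 10000 + 0.5). Over the 40 sums of type and mouse, which share libraries within a mouse and lie mostly along the neuronal against non-neuronal axis, Fos was closest to Klf4 (r = 0.968), Fosb (0.967) and Atf3 (0.964), a stress-induced factor. Jun was closest to Dusp1 (0.917), Klf6 (0.882) and Adss (0.878), Junb to Zfp36 (0.974), Capns1 (0.958) and Vamp8 (0.956), and Ier2 to Sertad1 (0.939), Fosb (0.918) and Klf4 (0.917). Over the 134 populations, which share mice and differ in depth, likeness was lower. Fos was closest to Junb (0.593), Tpi1 (0.534) and Dusp1 (0.489), Junb to Fos (0.593), S100a6 (0.468) and Tsc22d1 (0.395), and Ier2 to Eif4e3 (0.482), Nfib (0.471) and Atpif1 (0.455). Jund (0.681) and Aplp2 (0.633) were among the 3 genes closest to Jun. Across populations Fos and S100a5 had an r of 0.2495 and Jun and S100a5 one of -0.327, and Jun and Nr4a1 one of -0.530. The pair Fos and Nr4a1, at 0.916 over types, was at 0.00114 over populations. Nr4a1 had 446 UMIs over the 134 populations and was at 0 in 37, so low counts limit its r there with Fos and with Jun.

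Mice differed in the level of several members across types at once, but not in all. Mouse 2 was the lowest of the 4 for Fos in 9 of 10 types, for Junb, Btg2 and Nr4a1 in 8 and for Egr1 in 7, and mouse 1 was the highest for Fos in 8 and for Junb and Btg2 in 9. Fosb went the other way, since mouse 1 was lowest in 6 types and highest in 0, and mouse 2 lowest in 1. For Ier2 mouse 2 was lowest in 6 types and highest in 0, although in mature OSNs Ier2 differed little (1.89 to 1.98). Mouse 2 had the fewest UMIs in its library (23157467) and mouse 1 the most (32382702), and the median percent of mitochondrial UMIs in mature OSNs was 1.40 in mouse 2 and 0.935 in mouse 1. Library totals and mitochondrial percents moved with Fos, Junb, Btg2, Egr1 and Nr4a1 in mouse 2 and not with Fosb. Median UMIs per mature OSN had another order, with 4004 in mouse 4, 4382 in mouse 2, 5611 in mouse 1 and 6591 in mouse 3. The part of these values was not tested.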

How the data were processed

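Single cells of the main olfactory epithelium of 4 mice were counted with 10x Genomics 3′ chemistry. The authors made the deposited counts (UMIs per gene and cell, not normalized) with Cell Ranger 6.0.1 on GRCm38, per the submitters' processing notes, and deposited with them the cell types, OSN clusters and receptor identities used here. Per the study's methods, the authors drew the clusters in Seurat and removed blood, immune and high-mitochondrial clusters, and called the receptor with most UMIs the identity. That clustering may have used the members, so groups drawn by it are not independent of them.

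Here UMIs were summed per mouse and type, cluster or receptor population. Levels are UMIs per 10000 summed UMIs, as mean ± SD over mice, and shares are percents of cells with a UMI once cells had been cut down at random to 3000 UMIs apiece. Shallower cells, 1572 of 10519 mature OSNs, were then left out. Tests used edgeR 4.0.16 in R 4.3.3 (quasi-likelihood, TMM scaling, Benjamini-Hochberg over all genes tested, threshold 0.05), with genes above 0.3 UMIs per 10000 among populations. The mouse was a block, because sums of a mouse come from 1 animal and 1 library, and the 4 mice are the replicates. The tests were also run on simulated sums in which a small part of the genes was changed. Far larger shares were called in the real comparisons, so that run is no check on error rates there. Alternatives included DESeq2 1.42.0, limma 3.58.1, other scaling and filters, thinning to 5000 UMIs and leaving out each mouse. Limits given for a count of 0 cover counting error only. SDs are over mice, and SEs were derived from the log2 fold change and F of the edgeR test. The median mature OSN had 4004 to 6591 UMIs per mouse. Npas4 and Arc had 50 and 27 UMIs in all mature OSNs, so their levels there rest on few counts. Doublets were scored with Scrublet (scanpy 1.11.5). Its calls were not used and cells were kept, except in an alternative that left out the top 4% of scores. Counting by gene cannot split reads of overlapping genes.

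Members, gene lists and populations were chosen with earlier results of these data known. Named list genes were at most 4 per list and comparison, by the smallest p among those called. Named populations were the 5 highest and 5 lowest for each tested member, and genes most like Fos, Jun, Junb and Ier2 were the 3 with highest r each. For Jun over populations, 1 of these 3 is not reported here.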

Additional observations from a re-analysis of the deposited data

Results flagged for a closer look

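Each of the following was the value of a mouse that lay far from the other 3 relative to the spread of the 4, by Dixon's test at the 95% level. Of 153 groups with 30 or more UMIs of a member, 9 were so marked, and chance marks about 5% of groups.

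Mouse 4 stood high for Nr4a1 in mature OSNs, with a level of 0.324 UMIs per 10000 where the others ranged from 0.165 to 0.192, for Ier2 in iOSN2 (1.21) and for Btg2 in Dlg2+ V. (0.296), and low for Jun in Dorsal (2.12). Mouse 1 stood high for Ier2 in Sus (4.79) and for Fos in Dorsal (1.90). Mouse 2 stood low for Egr1 in INP (0.109, from 2 UMIs) and for Fos in Cd36+ V. (1.20). Mouse 3 stood high for Ier2 in Calb2+ V. (2.36).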

How the results depend on the processing

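Over 495 combinations of a member, a comparison and an alternative, 480 kept direction and side of the threshold, 10 no longer passed, 2 newly passed and 3 changed sign. All 3 changes of sign were Nr4a1 in dorsal against ventral clusters, which did not pass in any of them, at 0.37 with neurons thinned to 5000 UMIs and from -0.089 to 0.026 when each mouse was left out. Thinning to 5000 UMIs, which leaves out shallower cells, called 2367 genes among clusters (4263 otherwise), 957 between dorsal and ventral (1810) and 719 among populations (1294), where it called 1 member instead of 3, and a lower minimum of 0.1 called 6 members. The share of mature OSNs with a UMI moved with depth, to 36.0% at 5000 UMIs and 35.4% with all UMIs for Fos (25.5% at 3000), to 51.8% and 52.8% for Jun (40.7%) and to 58.0% in both for Ier2 (42.1%). Without the replicate block, which pairs sums of the same mouse, 9142, 6224, 3061, 1436 and 1164 genes were called in the 5 comparisons, in the order reported, and no call of a member changed. The alternatives without the Cd36+ clusters and within ventral populations were added after the data were seen. Low counts limit Npas4, Arc and the rarer members in populations.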
